A study of Homo sapiens with 5 samples.

Results

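TXNIP, ARRDC4, DDIT4, IRS2 and SESN3 are 5 genes whose transcripts respond to glucose, growth factor signalling or energy stress, and they were followed in single-cell RNA sequencing of MDA-MB-468 cells, an established line of basal-like breast cancer. The 5 were taken by symbol from the 36601 genes of the count tables, and each symbol matched 1 gene. The study treated the cells with PF0517515. The library names mark it as an ACC inhibitor, and the series title names acetyl-CoA carboxylase, which commits acetyl-CoA to fatty acid production, as the enzyme inhibited. The 5 libraries were untreated cells at 0 h, cells after 6 h with the inhibitor, cells after 72 h with the inhibitor, recovery cells taken after a 72 h treatment, and untreated cells at 72 h, with 1 library in each group. The labels used here give no dose, no vehicle, no glucose concentration and no length of recovery, and there was no untreated library at 6 h. With 1 library per group there was no replicate error and no test, so every interval below is a 95% interval for counting error only.

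TXNIP and ARRDC4 encode alpha-arrestins that promote the uptake of glucose transporters from the cell surface, and TXNIP also binds thioredoxin. Both are textbook targets of MondoA and its partner MLX, which enter the nucleus when glucose-6-phosphate is abundant. DDIT4, also called REDD1, and the sestrins, of which SESN3 is one, restrain the growth kinase mTORC1, DDIT4 through the TSC complex and sestrins through the GATOR complexes. DDIT4 is induced by the stress factor ATF4, by hypoxia and by glucocorticoids. IRS2 is an adaptor that carries signals from the insulin and IGF1 receptors to PI3 kinase, and IRS2 and SESN3 are known targets of FOXO factors.

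The promoters of TXNIP and ARRDC4 are shown because these genes share an activator and, as given below, were both close to undetected. TXNIP lies on chromosome 1 at 145992435 to 145996600 on the minus strand and ARRDC4 on chromosome 15 at 97960698 to 97973838 on the plus strand (GRCh38, GENCODE gene models), and no other gene of that annotation overlaps either. The windows run from 250 bases before to 50 bases after a RefSeq gene start (GRCh38.p14), at chr1:145996530-145996829 on the minus strand and at chr15:97960453-97960752 on the plus strand. Capitals mark matches to the motifs searched on both strands, and lower case letters within a match are its free positions.
TXNIP: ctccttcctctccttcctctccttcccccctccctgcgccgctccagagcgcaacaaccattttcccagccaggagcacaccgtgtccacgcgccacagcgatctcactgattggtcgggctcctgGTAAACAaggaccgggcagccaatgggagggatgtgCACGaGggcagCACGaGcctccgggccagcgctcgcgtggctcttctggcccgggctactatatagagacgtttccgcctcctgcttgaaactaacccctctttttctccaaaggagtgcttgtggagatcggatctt
ARRDC4: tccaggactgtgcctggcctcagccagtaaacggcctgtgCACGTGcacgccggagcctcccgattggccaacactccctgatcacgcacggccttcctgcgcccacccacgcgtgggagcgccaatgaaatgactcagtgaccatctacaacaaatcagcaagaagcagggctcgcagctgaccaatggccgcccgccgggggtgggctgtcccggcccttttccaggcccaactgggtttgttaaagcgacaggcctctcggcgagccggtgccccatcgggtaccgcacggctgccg
The TXNIP window holds a pair of CACGNG boxes 5 bases apart, the general form of a carbohydrate response element, starting 88 bases before the gene start. That form was widened after the sequences had been read, from the narrower pairs chosen at first, and 0.057% of the 35116 RefSeq windows hold it. The same window holds the FOXO-type letters TGTTTAC on the reverse strand, which 3.42% of windows hold. The ARRDC4 window holds 1 E-box, CACGTG, 210 bases before the start, a motif present in 7.26% of windows. None of these motifs, nor the FOXO-type TGTTTGC (3.89% of windows) or the ATF4-type TGATGNAA (3.62% of windows), was found in the windows of DDIT4, IRS2 and SESN3 or in a second RefSeq window of TXNIP. A match is a match of letters and was not tested as a binding site.

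Barcodes were kept at 1000 or more detected genes and a mitochondrial share of 20% or less, which left 3705 of 3736 barcodes at 0 h, 3006 of 3016 at 6 h, 1927 of 2057 at 72 h with inhibitor, 3537 of 3679 in recovery and 2920 of 2995 in the 72 h untreated library. The total of unique molecular identifiers (UMIs, each standing for 1 captured transcript) ranged over the libraries from 85376888 to 114350566. Median UMIs per cell were 41573 at 72 h with inhibitor, 26540 in recovery and 28980 to 33712 in the 0 h, 6 h and 72 h untreated libraries. Median mitochondrial shares were 3.31% at 72 h with inhibitor, 2.55% in recovery and 5.63% to 6.17% in those libraries. The part of these differences in the results below was not tested. Levels are given as CPM, the UMIs of a gene in each 1000000 UMIs of the library. All 6 epithelial and all 6 basal markers reached 10 CPM in at least 1 library, as did 1 of 2 hormone receptors (ESR1, at 3.45 to 12.5 CPM over the libraries), whereas 0 of 6 fibroblast, 0 of 6 immune, 0 of 5 endothelial and 0 of 3 erythroid markers did. Summed levels over the libraries were 2.7 to 9.07 CPM for the fibroblast list, 3.13 to 7.54 for the immune list and 1.22 to 4.01 for the endothelial list, and COL1A2, COL3A1, LUM, NKG7 and HBA2 were at 0 throughout. Any pair of libraries shared at most 7 cell barcodes.

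TXNIP was almost uncounted in every library. The annotation and counting settings were not given in the sources used here, so the values are of TXNIP as counted, and whether counting took a part in them was not tested. Over 15095 kept cells and 502472126 UMIs it had 1 UMI, in 1 cell of the 0 h untreated library, and 0 UMIs in the 6 h inhibitor, 72 h inhibitor, recovery and 72 h untreated libraries. A count of 0 allows up to 3 UMIs, which is 0.0281 CPM at 6 h, 0.0351 CPM at 72 h with inhibitor, 0.0294 CPM in recovery and 0.0319 CPM in the 72 h untreated library, and a share of at most 0.0848% to 0.156% of cells with a UMI. No ratio between libraries can be formed for TXNIP. The 14 protein-coding genes within 250 kb of TXNIP, examined after its values were seen, were not all silent, since 5 reached 10 CPM in at least 1 library. RBM8A, a core protein of the exon junction complex, was at 401 CPM in the 0 h untreated library and at 155 CPM at 72 h with inhibitor, its lowest level. POLR3GL, a subunit of RNA polymerase III and the nearest of these 5 to TXNIP, was at 21.9 to 40.2 CPM.

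ARRDC4 was detected at the level of single molecules. It had 11 UMIs at 0 h, 7 at 6 h with inhibitor, 14 at 72 h with inhibitor, 19 in recovery and 5 in the 72 h untreated library, or 0.0962, 0.0656, 0.164, 0.186 and 0.0532 CPM in the same order. Those 56 UMIs came from 52 cells. The highest library, recovery, was 3.49-fold above the lowest, the 72 h untreated library (interval 1.26 to 12), while no neighbouring libraries in the order of levels were apart beyond counting error. The 72 h inhibitor library was 3.08-fold above the 72 h untreated one on 14 against 5 UMIs (interval 1.05 to 10.9), and both levels were under the minimum of 10 CPM set for a comparison.

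**Figure D1:**
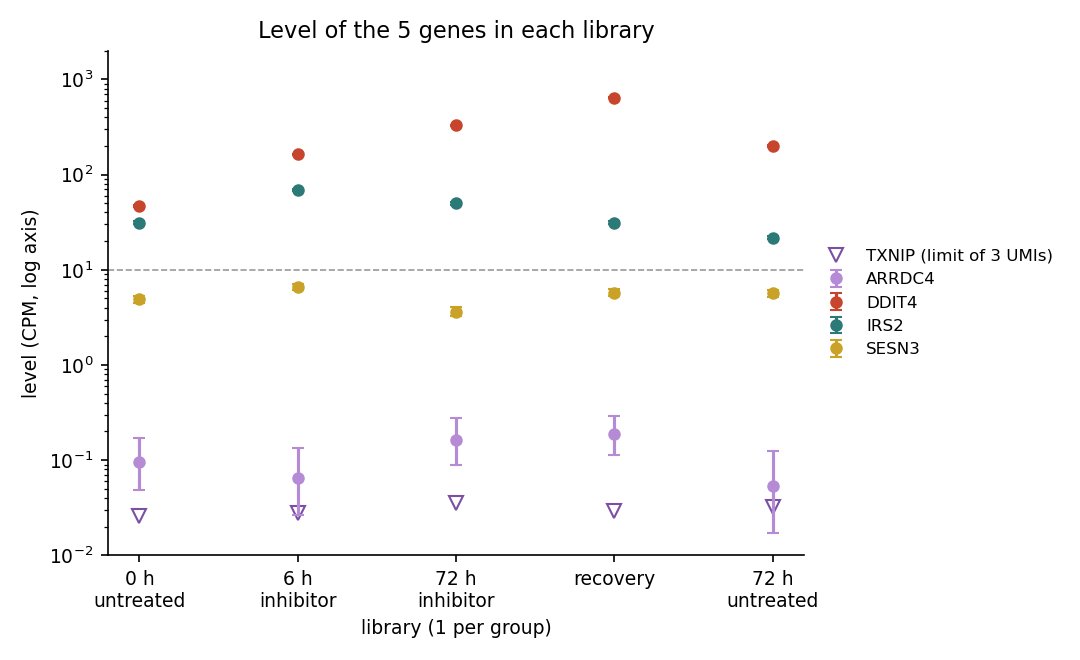
Level of each gene in CPM on a log axis, in the 5 libraries. Points are library values with 95% counting intervals, triangles mark the level that 3 UMIs would give for TXNIP, and the dashed line is 10 CPM; DDIT4 and IRS2 lie above the line in all 5 libraries, SESN3 below it, and ARRDC4 below 1 CPM.

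The other alpha-arrestins ranged from levels like those of ARRDC4 to above 10 CPM. ARRDC5 was at 0.0783 to 0.192 CPM and ARRDC3 at 5.82 to 9.56 CPM over the 5 libraries. ARRDC1, an alpha-arrestin of membrane budding, was at 50.6 CPM at 0 h, 50.1 at 6 h, 32.3 at 72 h with inhibitor, 25.9 in recovery and 44.8 in the 72 h untreated library. ARRDC2 was at 13.2 CPM at 72 h with inhibitor against 7.91 CPM in the 72 h untreated library. Of the MondoA partners, which were singled out after their values were seen, MLXIP (MondoA itself) was at 14.8 to 21.9 CPM and MLX at 25.3 to 34.6 CPM, while MLXIPL, which encodes the liver-type paralog ChREBP, stayed at or under 1.89 CPM. Transcripts of both MLXIP and MLX were thus counted in libraries with no TXNIP. In the network of MLX and MAX dimers, 10 of 11 genes reached 10 CPM at 72 h with inhibitor or in the 72 h untreated library, and none was more than 2-fold higher and 2 were more than 2-fold lower with the inhibitor. Over all genes in that comparison 1.98% were more than 2-fold higher and 7.35% more than 2-fold lower. Those 2 were the MAX partners MXD3, at 7.41 CPM with the inhibitor and 23.6 CPM untreated, and MXD4, at 7.22 CPM with the inhibitor and 15.5 CPM untreated, and the 2 highest ratios were those of MYC (log2 0.91) and MNT (log2 0.85).

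Other transcripts reported to respond to glucose through MondoA or ChREBP were measured in numbers. Of 13 on the list, which includes TXNIP and ARRDC4, 7 reached 10 CPM at 72 h, and all 7 had a log2 ratio above 0 for 72 h inhibitor over 72 h untreated, with a median of 0.73 against -0.14 over all genes. None of the 7 was more than 2-fold apart. KLF11 (log2 0.96), BHLHE40 (0.80), HK2 (0.78), HBP1 (0.73), BHLHE41 (0.67), KLF10 (0.33) and PFKFB3 (0.22) made up the 7, and these genes are also known to respond to signals other than glucose. HK2, the inducible hexokinase, was the single member of 8 compared that was more than 2-fold higher at 6 h with inhibitor, at 23.7 CPM against 10.5 CPM at 0 h. Of all genes 1.99% were more than 2-fold higher there. Untreated cells at 72 h had HK2 at 20.1 CPM, a log2 ratio of 0.95 over 0 h, and the list had a median of 0.66 in that comparison. Inhibitor and time in culture cannot be told apart at 6 h here either. The same 7 had a median of 0.45 for recovery over 72 h untreated, with all genes at -0.17, and HBP1 was more than 2-fold higher there.

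TXNIP binds thioredoxin, and the list of the thioredoxin system also holds its reductases and the peroxiredoxins. Of that list 1 of 8 genes compared was more than 2-fold lower with the inhibitor at 72 h, beside 7.35% of all genes. By library totals 0 of the 8 had a log2 ratio above 0, beside 39% of all genes, and the median was -0.43 against -0.14 over all genes. Under median-of-ratios scaling all genes had a median of 0.10, a shift wider than the distance of TXN (-0.13) and TXN2 (-0.23) from 0, so the count of 0 rests on the scaling. PRDX1, a peroxiredoxin, was that gene, at 589 CPM with the inhibitor and 1229 CPM untreated, and thioredoxin itself (TXN) was at 879 CPM with the inhibitor and 960 CPM untreated. Among the 9 glucose transporters of the list, SLC2A1 (GLUT1) was at 40.1 CPM at 0 h, 56.2 at 6 h, 35.9 at 72 h with inhibitor, 23 in recovery and 37.1 in the 72 h untreated library. SLC5A1, the sodium-coupled glucose transporter, was at 14.5 CPM at 72 h with inhibitor and 5.42 CPM in the 72 h untreated library, a log2 ratio of 1.42. The remaining 7 stayed below 10 CPM in every library.

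DDIT4 had the widest range over the libraries of the 4 genes with a ratio. It was at 46.6 CPM at 0 h, 163 at 6 h with inhibitor, 328 at 72 h with inhibitor, 643 in recovery and 200 in the 72 h untreated library. Recovery was thus highest and 0 h lowest, 13.8-fold apart (interval 13.4 to 14.2), and each neighbour in the order differed beyond counting error. The order places the 72 h untreated library above the 6 h inhibitor library, which was 1.22-fold lower (interval 1.2 to 1.25). DDIT4 lies on chromosome 10 at 72273920 to 72276036 on the plus strand and overlaps DDIT4-AS1 on the other strand, which was counted at 0.401 CPM or less. Whether counting used strand is not given in the sources used here, so reads of the pair may not be told apart.

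At 72 h DDIT4 was 1.64-fold higher with the inhibitor than untreated (interval 1.61 to 1.68), which 19.4% of the 9346 genes compared matched or passed in distance from 0 on the log2 scale. At 6 h with inhibitor it was 3.5-fold above 0 h (interval 3.39 to 3.61), a distance that 0.198% of 9075 genes matched or passed. Untreated culture to 72 h alone went with a 4.28-fold higher level than at 0 h (interval 4.15 to 4.42), more than the 6 h difference. Inhibitor and time in culture cannot be told apart at 6 h, and set against the 72 h untreated library the 6 h library turned to a log2 ratio of -0.29. Recovery was 1.96-fold above 72 h with inhibitor (interval 1.93 to 1.99) and 3.22-fold above 72 h untreated (interval 3.17 to 3.27). The recovery level was thus further from both untreated levels than the 72 h inhibitor level was.

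IRS2 followed another order. It was at 31.3 CPM at 0 h, 68.3 at 6 h with inhibitor, 49.9 at 72 h with inhibitor, 31.1 in recovery and 21.8 in the 72 h untreated library. Both inhibitor libraries were above both untreated ones, and recovery lay between the untreated libraries, at a level not apart from 0 h beyond counting error (0 h untreated over recovery 1.01-fold, interval 0.96 to 1.06). The whole range was 3.13-fold (interval 2.98 to 3.29). IRS2 lies on chromosome 13 at 109752698 to 109786568 on the minus strand and overlaps AL162497.1 on the other strand, at 2.77 to 4.86 CPM.

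At 72 h IRS2 was 2.29-fold higher with the inhibitor than untreated (interval 2.17 to 2.41), and 5.75% of genes were at least as far apart. At 6 h with inhibitor it was 2.18-fold above 0 h (interval 2.09 to 2.27), where 1.33% of genes were at least as far apart. The choice of untreated library left the direction in place: the log2 ratio was 1.65 for 6 h inhibitor over 72 h untreated and 0.67 for 72 h inhibitor over 0 h untreated. IRS2 was 1.37-fold lower at 72 h than at 6 h with the inhibitor, and 1.6-fold lower in recovery than at 72 h with inhibitor. Unlike DDIT4, it was lower in untreated cells at 72 h than at 0 h, by 1.44-fold (interval 1.36 to 1.52).

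Counted together, the 2 genes at 10 CPM or more stood against the following backgrounds. At 72 h with inhibitor over untreated, 1 of 2 (IRS2) was more than 2-fold apart, beside 9.33% of all genes. In cells with few UMIs of both S phase and G2/M genes (low in both cell cycle lists) that count was 0. At 6 h over 0 h it was 2 of 2, beside 2.13% of genes, and 1 of 2 under median-of-ratios scaling, the trimmed mean of M values or against the 72 h untreated library. At 72 h over 6 h of inhibitor it was 1 of 2 (DDIT4), beside 15.8%, and 0 without the 5% of cells of most UMIs, with equal weight per cell, in thinned cells or in cells low in both lists. Recovery over 72 h inhibitor gave 0 of 2, beside 9.3%, with DDIT4 just inside the limit at 1.96-fold. Recovery over 72 h untreated gave 1 of 2 (DDIT4), beside 15.5%, and 72 h over 0 h untreated gave 1 of 2 (DDIT4), beside 7.04%. The 6 comparisons share libraries and are not independent of each other.

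**Figure D2:**
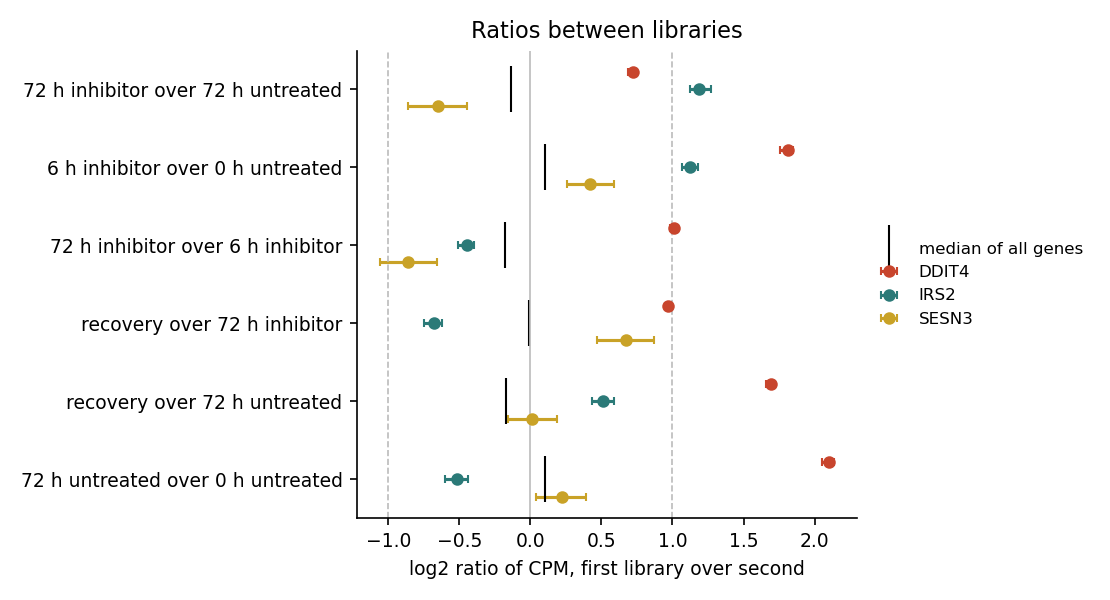
Log2 ratio of CPM between libraries for DDIT4, IRS2 and SESN3 in the 6 comparisons, first library over second. Bars are 95% counting intervals, black ticks the median of all genes compared and dashed lines 2-fold; DDIT4 is above 0 in all 6, and IRS2 is above 0 in the 3 of inhibitor or recovery over an untreated library.

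SESN3 was low in every library, at 4.9 CPM at 0 h, 6.56 at 6 h with inhibitor, 3.62 at 72 h with inhibitor, 5.75 in recovery and 5.69 in the 72 h untreated library. The 72 h inhibitor library was lowest, 1.57-fold under the 72 h untreated library (interval 1.36 to 1.81) and 1.81-fold under the 6 h inhibitor library (interval 1.58 to 2.08). Recovery and 72 h untreated were not apart beyond counting error (1.01-fold, interval 0.897 to 1.14). The gene lies on chromosome 11 at 95165513 to 95232541 on the minus strand and overlaps 2 annotated genes on the other strand, of which AP000787.1 was at 1.24 to 2.31 CPM. SESN3 was under the minimum of 10 CPM set for a comparison in every library, so none of its ratios was counted. By library totals its ratio at 72 h with inhibitor over untreated was opposite in sign to that of IRS2. Both are known FOXO targets, and the cause of the difference was not tested.

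By library totals SESN1 and SESN2, like SESN3, were lower at 72 h with inhibitor than at 72 h untreated, with log2 ratios of -0.40 and -0.28. All genes had a median of -0.14 by library totals and of 0.10 under median-of-ratios scaling. The ratio of SESN2 is close in size to that shift, so little is read from its sign. SESN2, a sestrin induced by ATF4, was at 7.19 CPM at 0 h, 34.3 at 6 h, 14.2 at 72 h with inhibitor, 41.8 in recovery and 17.3 in the 72 h untreated library. SESN1, a p53 and FOXO target, was at 9.72, 13.6, 10.1, 18.7 and 13.3 CPM in the same order. SESN2 and DDIT4 were both highest in recovery and lowest at 0 h. By library totals their log2 ratios at 72 h with inhibitor over 72 h untreated had opposite signs, within the limit given for SESN2. Set against 0 h, both were higher at 72 h with inhibitor. DDIT4L, the DDIT4 paralog, stayed at or under 0.666 CPM.

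Downstream of these genes, 32 of 35 measured genes of mTORC1 and its nutrient inputs reached 10 CPM at 72 h, and 2 were more than 2-fold higher and 1 more than 2-fold lower with the inhibitor, with a median log2 ratio of 0.13 against -0.14 over all genes. These 3 of 32 are a share close to the 9.33% of all genes that were more than 2-fold apart. The higher pair was FNIP1, at 80.1 CPM with the inhibitor and 38.3 CPM untreated, and its partner FLCN, at 11.4 CPM with the inhibitor and 5.57 CPM untreated, which together act on the RagC and RagD GTPases. The lower one was SLC38A9, a lysosomal arginine sensor, at 5.13 CPM with the inhibitor and 10.3 CPM untreated. For AMPK and its upstream kinases 0 of 8 genes were more than 2-fold apart at 72 h (median 0.04), the most distant being the subunit PRKAB2 (0.84) and the scaffold CAB39 (-0.48). In insulin and IGF signalling 1 of 19 genes was more than 2-fold apart at 72 h, and that gene was IRS2 itself, followed by INPPL1 at log2 0.50. The receptors were the lowest of that list, IGF1R with 18.1 CPM with the inhibitor and 34.8 CPM untreated, and INSR with 36.1 CPM with the inhibitor and 57.6 CPM untreated. IRS1, the related adaptor, was at 8.62 CPM with the inhibitor and 3.95 CPM untreated.

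FOXO factors and their reported targets, a list that holds TXNIP, IRS2 and SESN3, had 5 of 20 genes more than 2-fold higher and 0 lower at 72 h, beside 1.98% higher and 7.35% lower over all genes, with a median log2 ratio of 0.16. IRS2 is 1 of the 5. The furthest were PDK4, a kinase that blocks pyruvate dehydrogenase, at 21.6 CPM with the inhibitor and 2.3 CPM untreated, and KLHL24, at 30.8 CPM with the inhibitor and 12 CPM untreated. CITED2 (log2 -0.79) and INSR (log2 -0.68) were the lowest. FOXO3 itself was at 102 CPM with the inhibitor and 70.3 CPM untreated.

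DDIT4 is on the lists of targets of its 3 known kinds of inducer. At 6 h over 0 h, 9 of 17 ATF4-type stress targets were more than 2-fold higher, 17 of 17 were above 0 and the median was 1.10, against 1.99% of all genes more than 2-fold higher and a median of 0.10. In untreated cells at 72 h over 0 h the list also had 7 of 16 more than 2-fold higher, beside 5.56% of all genes, with 16 of 16 above 0 and a median of 0.86, so inhibitor and time in culture cannot be told apart at 6 h for this list either. At 72 h with inhibitor over untreated the same list had 4 of 17 more than 2-fold higher and 0 lower, beside 1.98% and 7.35% of all genes, with a median of 0.58 and with GDF15 (log2 2.80) and DDIT3 (1.84) highest and SLC7A11 (-0.89) and PSAT1 (-0.61) lowest. Hypoxia-type targets had 2 of 12 more than 2-fold higher and 1 lower at 72 h, beside the same shares of all genes, NDRG1 (3.18) and VEGFA (1.07) being the higher and EGLN3 (-1.33) the lower. Glucocorticoid-type targets had 0 of 8 more than 2-fold higher and 1 lower, DUSP1 (-2.50), in that comparison, beside the same shares. At 6 h over 0 h, 2 of 12 hypoxia-type targets (median 0.65) and 2 of 7 glucocorticoid-type targets (median 0.32) were more than 2-fold higher. In untreated cells at 72 h over 0 h, 1 of 10 hypoxia-type targets was higher and 2 lower (median -0.05), beside 5.56% and 1.48% of all genes. There 2 of 7 glucocorticoid-type targets were higher (median 0.83). DDIT4 is among the higher genes in each count over 0 h, also for the ATF4-type list. In recovery over 72 h untreated, 4.52% of all genes were more than 2-fold higher and 11% lower. There 5 of 17 ATF4-type targets were more than 2-fold higher and 1 lower, 5 of 13 hypoxia-type targets higher and 1 lower, and 4 of 8 glucocorticoid-type targets higher and 1 lower, with DDIT4 counted in each list. The 4 glucocorticoid-type targets were DDIT4, KLF9 (log2 1.13), TSC22D3 at 402 CPM in recovery and 93.5 CPM in the 72 h untreated library, and PER1 at 40.7 CPM in recovery and 12.7 CPM untreated. The lower one was ERRFI1, at 26.1 CPM in recovery and 75.2 CPM untreated. Of 14 glycolysis enzymes 0 were more than 2-fold apart at 72 h, with a median of -0.15, close to that of all genes.

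To compare single cells at equal depth, each cell was thinned to 5000 UMIs drawn at random, which left out 5 to 75 kept cells per library. DDIT4 had at least 1 UMI in 18.4% of cells at 0 h, 48.2% at 6 h, 66.4% at 72 h with inhibitor, 83.2% in recovery and 51.4% in the 72 h untreated library. Without thinning the shares were 49.1, 87.4, 91.5, 96.6 and 87.8% in the same order. Recovery had the highest share and 0 h the lowest with and without thinning, while the size of each share is set by depth and a cell with no UMI is not shown to lack the transcript. Cells with 5 or more UMIs of DDIT4 made up 0.243% at 0 h, 1.47% at 6 h, 7.01% at 72 h with inhibitor, 22.5% in recovery and 2.77% in the 72 h untreated library. Counts of DDIT4 varied more than a Poisson spread, with a variance of 2.09, 1.6, 2.4, 3.97 and 1.88 times the mean in that order, and the highest single cell, in recovery, had 32 UMIs.

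IRS2 had a UMI in 13.3% of cells at 0 h, 27.2% at 6 h, 23.4% at 72 h with inhibitor, 14.3% in recovery and 9.53% in the 72 h untreated library. Without thinning these shares were 46.9, 78.1, 74.8, 50.9 and 37.6%. Its variance was 1.12 to 1.2 times the mean, closer to a Poisson spread than that of DDIT4, and at most 7 UMIs were seen in a thinned cell. SESN3 had a UMI in 1.66% to 3.44% of thinned cells and ARRDC4 in 0 to 3 cells per library. COL1A1, a collagen of the fibroblast list, had a UMI in 1.51% to 4.42% of cells at the same 5000 UMIs. In the rest of that list COL1A2, COL3A1, DCN and LUM were in 0% of these cells and PDGFRB in at most 0.0535%. COL1A1 thus stands apart from its list and sets no background level, and the source of its UMIs was not tested. SESN3 was under 10 CPM in every library, and nothing is read from its shares.

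**Figure D3:**
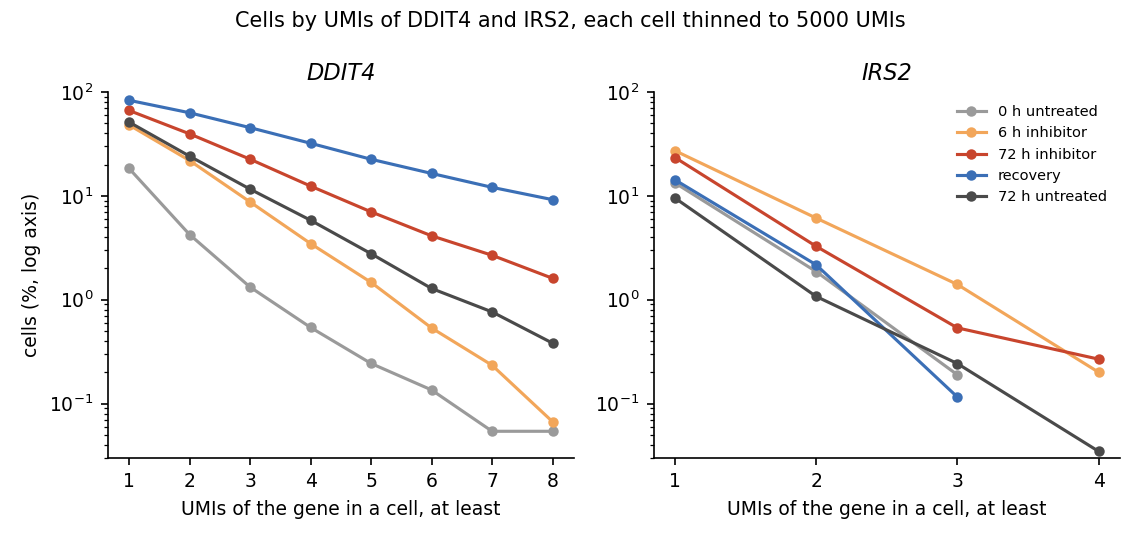
Share of cells (%, log axis) with at least the given number of UMIs of DDIT4 (left) or IRS2 (right), each cell thinned to 5000 UMIs. Lines join the values of 1 library; for DDIT4 recovery lies highest and 0 h lowest at each number up to 7, and for IRS2 the inhibitor libraries lie highest at 1 and at 2 UMIs.

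DDIT4 and IRS2 were close to unrelated across single cells. At 72 h with inhibitor, IRS2 had a UMI in 21.7% of cells with DDIT4 and in 26.8% of cells without it. In recovery these shares were 14% of cells with DDIT4 and 15.7% of cells without it. The Pearson correlation of log2(UMIs + 1) between the pair was -0.08 to 0.02 over the 5 libraries, within 1868 to 3700 cells each, a description of sparse counts and no finding. Summed UMIs of the ATF4-type list without DDIT4 gave correlations with DDIT4 of 0.13 to 0.22 within libraries, those of the hypoxia-type list 0.00 to 0.09 and those of the glucocorticoid-type list -0.06 to 0.02. Recovery cells with no DDIT4 had a mean of 13 UMIs of the ATF4-type list and 1.73 of the hypoxia-type list. The glucocorticoid-type sum, a mean of 19.5 in those cells, is carried mostly by MT2A, at 2090 to 3258 CPM over the libraries. With sums so unlike, these correlations do not rank the kinds of inducer. In recovery, cells with 5 or more UMIs of DDIT4 had a mean of 15.8 UMIs of the ATF4-type list and 2.48 of DDIT3, against 13 and 1.91 in cells with no DDIT4. At 72 h with inhibitor the means were 17.5 and 1.26 in cells with 5 or more, against 14.7 and 0.817 in cells with none. Median UMIs before thinning were 27557 in the recovery cells with 5 or more, against 24129 in those with none.

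By the profile of log2(CPM + 1) over the 5 libraries, the genes most like DDIT4 among 9585 were CPEB3, a translational regulator, CDKN1C, a cyclin-dependent kinase inhibitor, and GUCA1B, with root mean square differences of 0.37, 0.402 and 0.408. CPEB3 was at 8.31 CPM at 0 h, 14.2 at 6 h, 34.9 at 72 h with inhibitor, 69.4 in recovery and 21.4 in the 72 h untreated library. For IRS2 they were SYBU (0.146), PRSS23 (0.236) and PYGB (0.237), and SYBU was at 11.4, 25.4, 20.9, 11.8 and 10.4 CPM in the same order. Each profile rests on 5 libraries, and genes of like profile are many. Across cells, the 3 genes with the highest mean correlation with DDIT4 were IER3 (0.14), ELF3 (0.12) and DDIT3 (0.10). IER3, an early response gene, had a correlation of 0.36 with DDIT4 in recovery and of 0.05 to 0.13 elsewhere. In recovery DDIT4 was at 866 CPM in the cells above the median of IER3 and at 456 CPM in the others, while at 6 h it was at 175 CPM above the median and at 165 CPM in the others. For IRS2 the 3 were EGFR, TGFB2 and MALAT1, at 0.12, 0.12 and 0.11, with depth and library shared by all cells of a library.

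**Figure D4:**
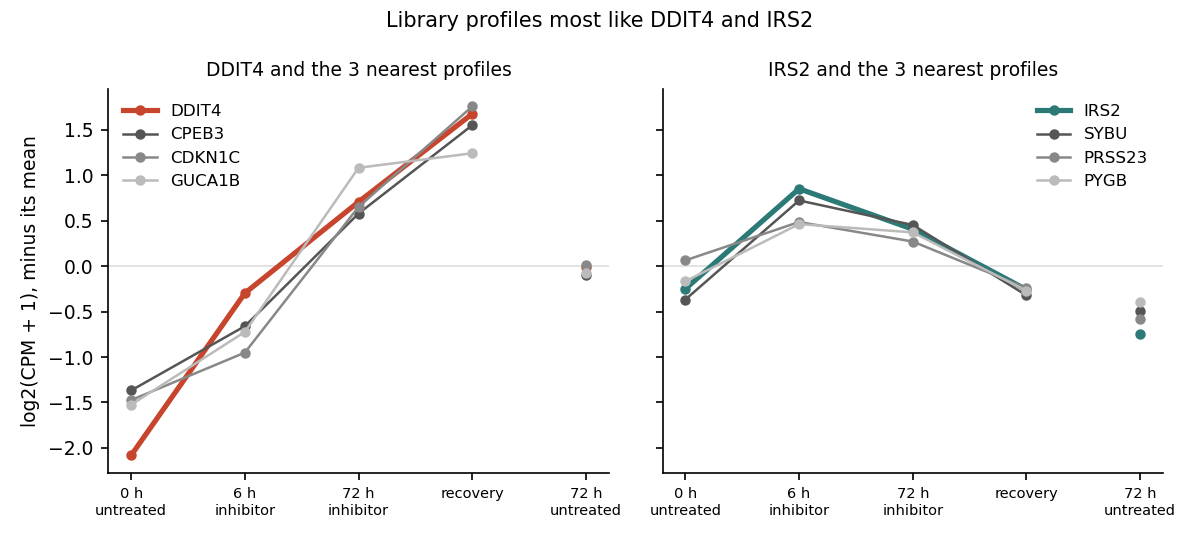
Library profiles of DDIT4 and of IRS2 with the 3 genes nearest to each, as log2(CPM + 1) minus its mean over the 5 libraries. Lines join 0 h, 6 h, 72 h inhibitor and recovery, and the 72 h untreated library stands alone; the genes near DDIT4 are highest in recovery, and those near IRS2 are highest at 6 h.

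The libraries differed in their UMIs of S phase and G2/M genes, and DDIT4 and IRS2 were read within 3 classes set by summed UMIs of S phase and G2/M genes against the 0 h medians of 15 and 17 UMIs. Cells low in both made up 29% at 0 h, 31.2% at 6 h, 74.5% at 72 h with inhibitor, 42.1% in recovery and 47% in the 72 h untreated library. Between 7.49% and 19.5% of cells lay within 1 UMI of a limit, so the classes are ranges rather than cell types, and no other measure of cycling was at hand. With limits at each library's own medians, cells low in both were 29% to 36% of every library. At 72 h DDIT4 was higher with the inhibitor in each class, by log2 0.72 in cells low in both (interval 0.62 to 0.82), 0.83 in S high cells (0.40 to 1.25) and 0.63 in G2/M high cells (0.49 to 0.76). Over all kept cells the same log2 ratio was 0.72. S high cells were few in 2 libraries, with 38 cells (2.03%) at 72 h with inhibitor and 29 cells (0.838%) in recovery. The 72 h untreated library had 313 (10.8%). Within libraries DDIT4 was lower in S high cells than in cells low in both at 0 h, by 1.81-fold (interval 1.53 to 2.15), and at 6 h, by 1.55-fold (interval 1.4 to 1.72). G2/M high cells had less DDIT4 than cells low in both at 0 h, by 1.27-fold (interval 1.1 to 1.48), and at 6 h, by 1.4-fold (interval 1.28 to 1.53). In recovery they had more, at 699 CPM against 562 CPM in cells low in both. DDIT4 was also lower in deeper cells at 0 h and at 6 h. In 3 groups of cells from fewest to most UMIs it was at 56.9, 50.4 and 45.7 CPM at 0 h. At 6 h it was at 208, 160 and 140 CPM in the same order. The 72 h inhibitor, 72 h untreated and recovery libraries had no steady order of DDIT4 with depth. The part of depth in the class differences of DDIT4 was not tested.

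IRS2 in G2/M high cells was at 72 CPM at 72 h with inhibitor and 18.8 CPM in the 72 h untreated library, a log2 ratio of 1.94 (interval 1.58 to 2.30). In cells low in both it was at 49.9 CPM with the inhibitor and 24.6 CPM untreated, a log2 ratio of 1.02 (interval 0.75 to 1.29). On all UMIs of those cells, without thinning, the ratio was 0.80, under 2-fold. The intervals of the thinned ratios in both classes do not overlap, but they cover counting error alone. Within the 72 h inhibitor library G2/M high cells had 1.44-fold more IRS2 than cells low in both (interval 1.19 to 1.75), whereas within the 0 h, 6 h and 72 h untreated libraries they had 1.27-fold, 1.47-fold and 1.31-fold less. With limits set at the medians of each library the 72 h inhibitor values were 63.1 CPM in G2/M high cells and 49.4 CPM in cells low in both. IRS2 also varied with depth in that library, at 71.7 CPM in the third of cells with the fewest UMIs, 43 CPM in the middle group and 51.4 CPM in the third with the most, with no steady order. The part of depth in the result was not tested.

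**Figure D5:**
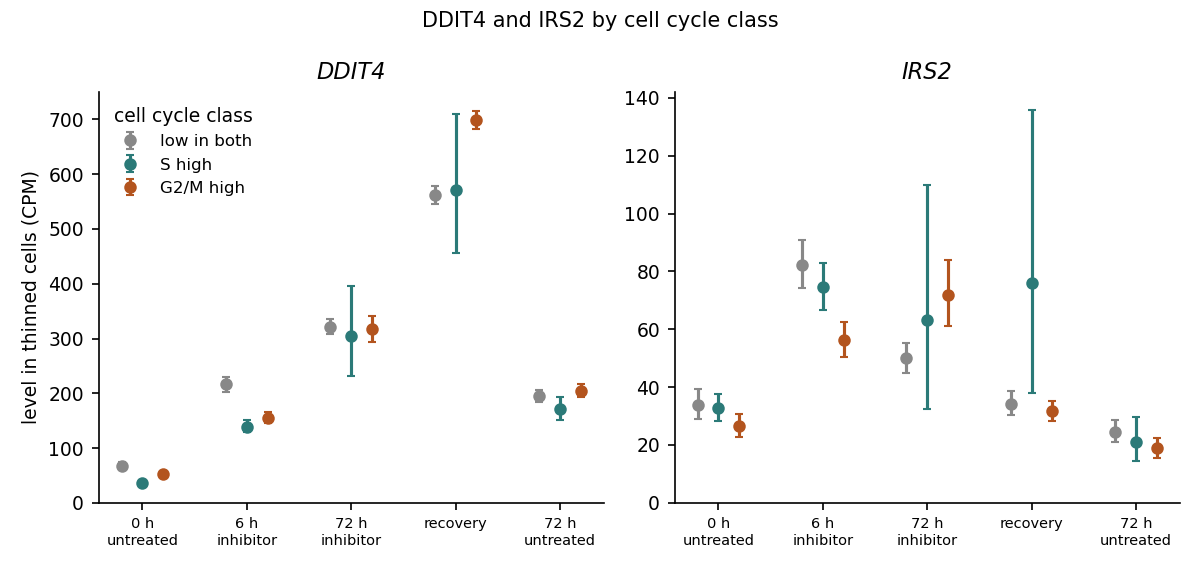
DDIT4 (left) and IRS2 (right) in CPM of thinned cells by cell cycle class, with 95% counting intervals. DDIT4 in all 3 classes is lowest at 0 h and highest in recovery. The S high class holds 38 cells at 72 h with inhibitor and 29 cells in recovery. IRS2 in G2/M high cells is at 72 CPM at 72 h with inhibitor and at 18.8 CPM in the 72 h untreated library.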

How the data were processed

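The labels describe single-cell suspensions run with the 10x Genomics Single Cell 3' v3.1 kit. The authors deposited UMI counts per gene and cell barcode, made with Cell Ranger 7.1.0 on GRCh38, as the submitters' processing notes have it. The gene annotation, the strand setting and the treatment of intronic reads were not given in the sources used here. From these counts, each library's UMIs were added over kept cells and scaled to its total (CPM). Ratios carry exact Clopper-Pearson 95% intervals conditional on the sum of both counts, levels exact Poisson ones and shares exact binomial ones; UMIs lost in capture and culture differences are not covered. A gene was compared at 10 CPM or more in either library and counted when more than 2-fold apart. Cells were thinned with a fixed seed, and doublets were not removed. The 16 gene lists, the members and the rule for named genes were chosen with earlier results of these data known. By that rule all members of lists of up to 8 measured genes, and the 2 highest and 2 lowest 72 h ratios of longer lists, could be named. HK2, HBP1 and BHLHE41 of the glucose-responsive list were named outside it, as were TSC22D3, PER1 and ERRFI1, named for recovery. FOXO3, IRS1, MLXIP, MLX, MLXIPL and the neighbours of TXNIP were chosen after their values were seen. Likeness used the 3 nearest genes. On simulated data with 200 changed genes of 9061, for 72 h inhibitor over 72 h untreated, all 200 came out in the right direction and 95.3% of intervals held the true ratio. The simulated library sums were drawn with Poisson error, which the intervals assume, so a share near 95% was set in advance. The simulation held no spread between cells or libraries. Spread between cells beyond Poisson, as seen for DDIT4, is not covered by the intervals. Computation used pandas 2.3.3, scipy 1.17.1, numpy 2.4.6 and matplotlib 3.10.9 under Python 3.11.15.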

Additional observations from a re-analysis of the deposited data

How the results depend on the processing

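The direction of DDIT4 and IRS2 in all 6 comparisons held under 12 alternatives (cell filters, scalings, expression minimums, equal weight per cell, thinned cells, cells low in both cell cycle lists). Against the other untreated library DDIT4 at 6 h turned to -0.29 (log2) and IRS2 in recovery came to -0.01. Counts of members more than 2-fold apart moved as follows. For 6 h inhibitor over 0 h untreated the count was 1 against the 72 h untreated library, 1 with median-of-ratios scaling and 1 with the trimmed mean of M values. For 72 h over 6 h of inhibitor it was 0 without the 5% of cells of most UMIs, 0 with equal weight per cell, 0 in thinned cells, 0 in cells low in both lists and 2 with no expression minimum. For 72 h inhibitor over 72 h untreated it was 2 with no minimum, 0 with a minimum of 50 CPM and 0 in cells low in both lists. For recovery over 72 h untreated it was 2 with no minimum. ARRDC4 is the gene added with no minimum. DDIT4 at 72 h over 6 h of inhibitor ranged from 0.70 to 1.15, IRS2 at 72 h over untreated from 0.80 to 1.43, and IRS2 at 6 h over 0 h from 0.95 to 1.32. SESN3 in untreated cells at 72 h over 0 h came to -0.05 under median-of-ratios scaling and to -0.02 under the trimmed mean, and ARRDC4 in recovery over 72 h inhibitor turned to -0.07 in cells low in both lists. For 72 h inhibitor over untreated, all genes had a median of 0.10 under median-of-ratios scaling, with 380 genes more than 2-fold higher and 365 lower, and of -0.14 by library totals, with 185 higher and 687 lower. ARRDC4 had 3 or fewer UMIs in a library under 3 of the alternatives, so ratios with such a library were not formed. No paired analysis was possible because each group has 1 library. The causes were not tested.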

Other observations

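IRS2 was higher in cells with more EGFR, the epidermal growth factor receptor that this line carries at a high level, in each of the 5 libraries. In cells above the library median of EGFR, IRS2 was at 43.7 CPM at 0 h, 82.9 at 6 h with inhibitor, 71.9 at 72 h with inhibitor, 41.7 in recovery and 28.8 in the 72 h untreated library. In the other cells it was at 18.1, 58.1, 41.8, 25.7 and 15.8 CPM in the same order. EGFR itself was at 2477, 4397, 2391, 1428 and 2570 CPM in that order, highest at 6 h as IRS2 was. Their orders differed otherwise: at 72 h with inhibitor EGFR was below both untreated libraries, whereas IRS2 was above both. EGFR was picked as the gene with the highest correlation with IRS2, so these values describe that choice and are no test. The pattern was not particular to EGFR, since IRS2 was also higher above the median of MALAT1, a nuclear RNA, and of TGFB2 in each library. For MALAT1, IRS2 was at 41.8 CPM above the median and 19.8 in the others at 0 h. At 72 h with inhibitor these were 68.7 and 42.1 CPM. For TGFB2 they were 41.8 and 23.2 CPM at 0 h, and 72.1 and 46.8 CPM at 72 h with inhibitor. The part of MALAT1 in the pattern was not tested.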
